A study of Saccharomyces cerevisiae with 6 samples.

Results

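Transcript levels in baker's yeast, Saccharomyces cerevisiae, after 120 min of aeration were compared with those after 20 min, in cells that had grown without oxygen beforehand. For each gene the log2 ratio at 20 min was subtracted from the log2 ratio at 120 min, and same-gene features of the array were averaged first. Both ratios were taken against 1 pool of RNA from before aeration, so the pool cancels in the difference. A value in both samples, and with it a difference, was held by 6245 of the 6470 genes or unnamed features on the array. Of these, 5582 carried a gene symbol or locus identifier and 663 did not. The other 225 lacked a difference, 47 of them with a value at 20 min only, 19 with a value at 120 min only and 159 with neither.

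The 120 min culture and the 20 min culture were grown alike in synthetic complete medium to which amino acids, ergosterol and unsaturated fatty acids had been added, in bottles that were flushed with nitrogen and chemically reduced. Air was then supplied to exponentially growing cells (OD600 of 1.0) for the stated time, and the pool was made of aliquots taken at 0 min. The cells had therefore been given the lipids that yeast cannot make without oxygen, at every time and in the pool. Flasks of the different times were separate, the submitters merged 2 arrays of opposite dye orientation into each aerated sample's values, and no source used here names the strain. The series also holds samples at 5, 10 and 60 min and a self-hybridisation of the pool, 6 samples on 11 arrays in all. It holds no culture kept without air for 20 or 120 min, so time in air and time in culture cannot be told apart. There was 1 sample a side, so the differences below have no replicate, no error of their own and no test, and genes at least 2-fold apart are counted as a description.

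Oxygen is needed by yeast for respiration and also for making heme, sterols and unsaturated fatty acids. Without it, cells express a set of hypoxic genes, many of them held down in air by the repressor Rox1 once heme is made, while heme also activates genes of respiration through Hap1 and the Hap2/3/4/5 complex. Air brings reactive oxygen species as well, against which the transcription factor Yap1 induces thioredoxins, peroxidases and exporters.

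Ratios are given as aerated over anaerobic. That direction is likely from the titles and is not settled by the labels, which list both dyes for both channels, and aerated RNA was in the same channel at 20 and at 120 min and in the other one at 5 and 10 min. Genes with well-known oxygen responses were read as a check of it. DAN1 and TIR1, cell wall mannoproteins made without oxygen, were at log2 ratios of -3.42 and -5.97 at 120 min and of -3.51 and -2.83 at 20 min. HEM13, the oxygen-using coproporphyrinogen oxidase of heme synthesis, was at -3.06 at 120 min and -2.66 at 20 min, and CYC7, the hypoxic form of cytochrome c, at -1.13 and -1.25. SOD1, the copper-zinc superoxide dismutase, was at 1.65 at 120 min and 2.18 at 20 min, and CYC1, the main cytochrome c of aerobic cells, at 0.69 and 3.16. These 4 hypoxic genes lay below the pool and both aerobic genes above it at both times. Other genes known to be hypoxic, such as AAC3 (0.51 at 120 min and 0.32 at 20 min), did not lie below it. Nor did all aerobic genes lie above it at 20 min. COX5A, the aerobic form of a cytochrome oxidase subunit, was at 0.94 at 120 min and -0.11 at 20 min. The median of 30 respiratory chain genes was 0.47 and -0.0061. In the 5 min sample, in contrast, whose description field is that of the self-hybridisation, DAN1, TIR1 and HEM13 were above the pool, at 1.96, 2.24 and 1.32.

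Most transcripts differed little between the samples. The median difference was -0.0099, 48.9% of genes were higher at 120 min, and 82.9% were within 1.5-fold. At least 2-fold higher at 120 min were 162 genes (2.59% of 6245), and at least 2-fold lower were 137 genes (2.19%), 299 together (4.79%). The later counts of list members past 2-fold are to be read beside these shares. By the same measure 2.80% of 6081 genes differed 2-fold either way between 20 and 10 min, and 26.6% of 5873 genes between 120 and 60 min. The 60 min sample had a median absolute deviation of 0.55 around its median, against 0.23 at both 120 and 20 min, and its extraction text speaks of 20 min, so it is given below only beside the other times. The self-hybridisation, which ideally holds no difference, had 4.00% of 3521 genes 2-fold from 0. The share past 2-fold between 120 and 20 min was close to this, but the shares are unlike measures. The self-hybridisation covers fewer genes, and only the aerated samples are given as dye-swap pairs. Its share is therefore not an error rate for the difference. For 21 genes with a difference from 2 features, the gap between the features was 0.20 at the median and 1.18 at most (0.32 for the SD within a gene). COG8 (1.006) and WSC4 (1.007) were the genes just past the 2-fold line on the higher side and DDR2 (0.996) just short of it, while PGA3 (-1.0045) was just past it on the lower side and MRPL37 (-0.996) just short. In a whole culture, fewer cells with a transcript and less of it in each cell cannot be told apart.

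**Figure D1:**
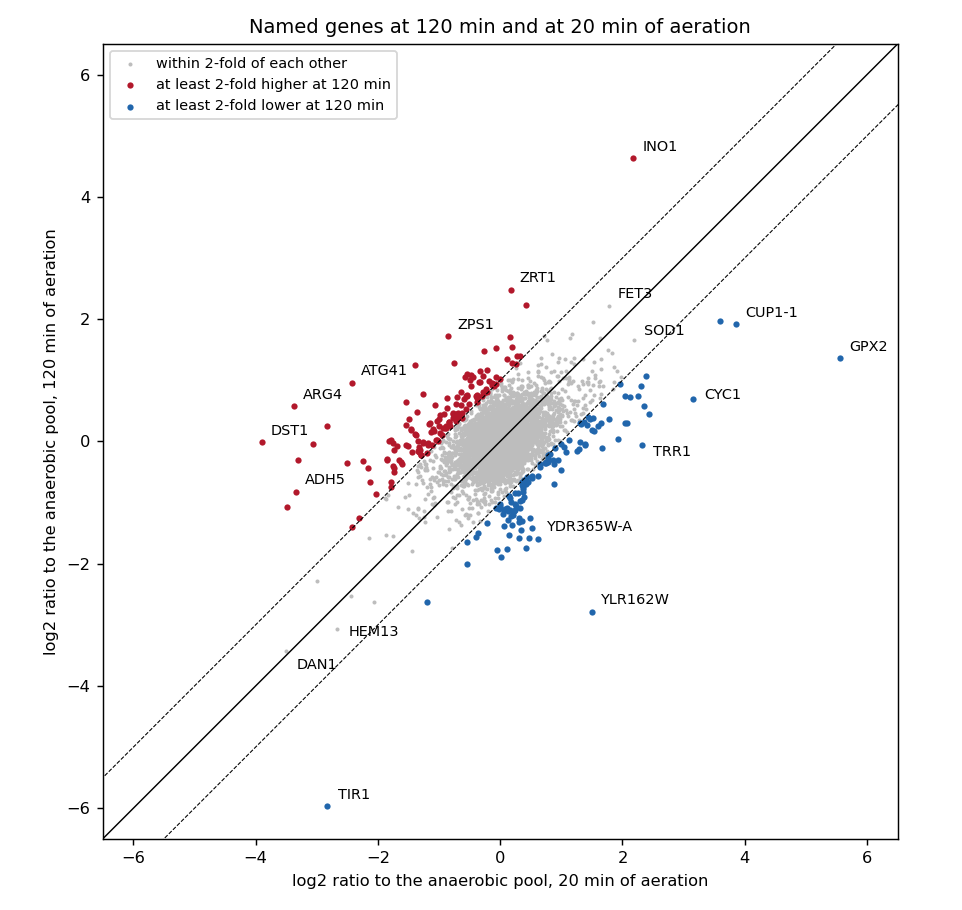
Log2 ratio to the anaerobic pool at 120 min (vertical axis) against that at 20 min (horizontal axis) for genes with a symbol or locus identifier, with equal values on the solid line and a 2-fold difference on the dashed lines. Red points are at least 2-fold higher and blue points at least 2-fold lower at 120 min. ARG4 (0.58 at 120 min and -3.38 at 20 min) and GPX2 (1.36 and 5.57) lie far to either side, while DAN1 and HEM13 lie near the solid line.

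A reading that does not use either sample to choose genes came from the 10 min culture. At 10 min 134 genes were at least 2-fold above the pool (2.20% of 6091) and 168 at least 2-fold below it (2.76%). Of the genes above the pool at 10 min, all 134 had a difference, 29 were at least 2-fold lower at 120 min than at 20 min and 2 were higher. That is 21.6% lower, against 2.19% of all genes. Their median difference was -0.37, and 99 of 134 lay below 0. Of the genes below the pool at 10 min, 150 had a difference, of which 49 were at least 2-fold higher at 120 min (32.7%, against 2.59% of all genes) and 9 were lower. Their median difference was 0.57, and 112 of 150 lay above 0. Among the 5779 genes within 2-fold of the pool at 10 min, 1.87% were higher and 1.57% lower. The early responses were thus smaller at 120 min than at 20 min in most of these genes. The median ratio of the genes above the pool at 10 min was 0.62 at 120 min and 0.97 at 20 min. That of the genes below it was -0.36 at 120 min and -0.96 at 20 min. These ratios, unlike the difference, share the pool with the 10 min ratios that chose the genes. They therefore cannot show how much of the early responses was left.

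**Figure D2:**
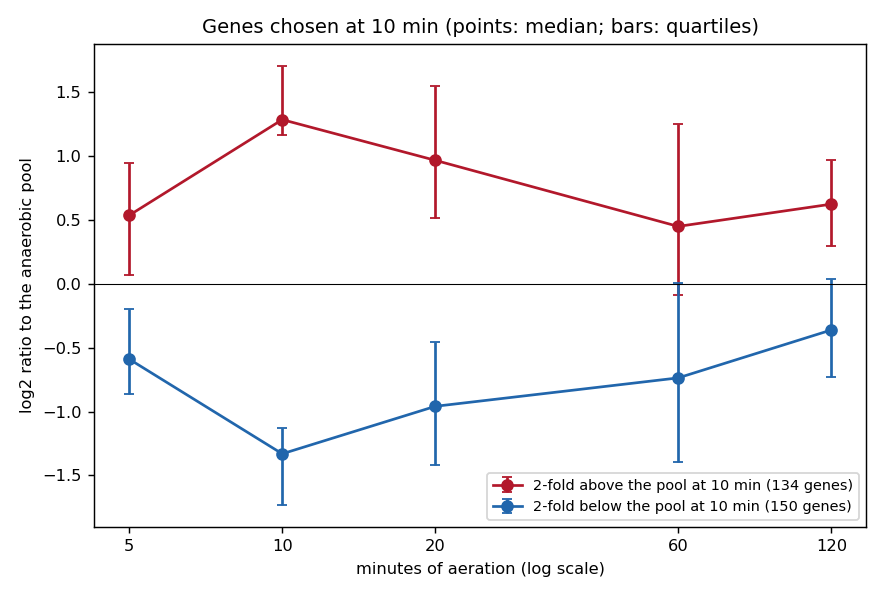
Median log2 ratio to the anaerobic pool by minutes of aeration (log axis) for the genes at least 2-fold above the pool at 10 min (red) and at least 2-fold below it at 10 min (blue), with bars from the first to the third quartile. Only the 10 min values chose the genes. The red line is at 1.29 at 10 min, 0.97 at 20 min and 0.62 at 120 min, and the blue line at -1.33, -0.96 and -0.36.

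The genes furthest above the pool at 10 min did not share 1 course. CUP1-1 and CUP1-2, the copies of the copper metallothionein, which the array may not tell apart, were at 5.56 and 5.47 at 10 min. CUP1-1 was at 1.92 at 120 min and 3.86 at 20 min, and CUP1-2 at 1.96 and 3.59, so both were above the pool at these times, but at 60 min they were at 0.49 and 0.0445. GPX2, a glutathione peroxidase-like enzyme, was at 4.85 at 10 min. ROX1, the repressor of hypoxic genes, was at 2.69, 2.29, 0.72, 0.54 and 0.80 at 5, 10, 20, 60 and 120 min, a difference of 0.08. Its peak thus came before the compared pair, as did that of HXT4, a hexose transporter, at 2.25, 2.74, 0.96, 0.15 and 0.69. YLR108C, a reading frame with no name, was at 3.0001, 3.42, 2.04, 1.41 and 0.30, and was 1.74 lower at 120 min on the log2 scale. STE20, a kinase of the pheromone pathway, was at 0.93 at 120 min and 1.96 at 20 min, and BUD2, a regulator of bud site choice, at 0.58 and 2.35.

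Many targets of Yap1 were lower at 120 min than at 20 min. Of 23 targets of Yap1 with a difference, 9 were at least 2-fold lower and 0 higher (2.19% and 2.59% of all genes), 22 lay below 0, and the median was -0.87, beside -0.0099 over all genes. GPX2 had the largest difference of them, -4.21 or 18.5 times lower, with 2.72, 4.85, 5.57, 1.20 and 1.36 at 5, 10, 20, 60 and 120 min. TRR1, the cytosolic thioredoxin reductase, was at -0.06 at 120 min and 2.33 at 20 min. TRR1 had thus come back to the level of the pool, while GPX2 had not. TSA1, the main peroxiredoxin, was at 0.74 at 120 min and 2.25 at 20 min. TRX2, a thioredoxin, was at 0.37 and 1.77, and AHP1, a peroxiredoxin acting on alkyl hydroperoxides, at 0.75 and 2.04. GRE2, a methylglyoxal reductase, was at 0.45 and 2.44. These 4 genes remained above the pool at 120 min by less than 2-fold.

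The exporters among the Yap1 targets did not all have 1 sign. ATR1, a drug and boron exporter, was at -0.75 at 120 min and 0.38 at 20 min, and PDR5, the main multidrug pump, at 0.02 and 1.12. YAP1 itself was at 0.00 at 120 min and 0.97 at 20 min, a difference of -0.97. FLR1, another exporter, was the only Yap1 target with a difference above 0, of 0.29. SRX1, the sulfiredoxin that repairs peroxiredoxins, had its highest values earlier, at 2.17, 2.15, 1.33, 0.90 and 0.44 at 5, 10, 20, 60 and 120 min. Its course differs from that of TRR1, which was at 0.80, 1.36, 2.33, 0.49 and -0.06.

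Among 13 peroxiredoxins and thioredoxins, 6 were also in the Yap1 list. Of the 13, 6 were at least 2-fold lower at 120 min and 0 higher (2.19% and 2.59% of all genes), with a median of -0.88. TSA2, the inducible partner of TSA1, was at -0.57 at 120 min and 0.53 at 20 min, and DOT5, a nuclear peroxiredoxin, at -0.63 and 0.39. The mitochondrial members were not all alike. PRX1, the mitochondrial peroxiredoxin, had a difference of -0.78, whereas TRX3, the mitochondrial thioredoxin, and TRR2, its reductase, had differences of 0.41 and 0.37. In the glutathione system, 1 of 18 genes, GPX2, was past 2-fold, and the median was -0.19. GLR1, glutathione reductase, had a difference of -0.65, and GSH1, the first enzyme of glutathione synthesis, of -0.37. GPX1, another glutathione peroxidase-like gene, had the opposite sign, with 0.47 at 120 min and -0.48 at 20 min.

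The catalases went opposite ways. CTA1, the peroxisomal catalase, was at -0.15 at 120 min and 1.26 at 20 min, and CTT1, the cytosolic catalase known as a general stress gene, at 0.21 and -1.46. SOD2, the mitochondrial superoxide dismutase, was at 0.32 at 120 min and 0.99 at 20 min. SOD1 had a difference of -0.53 and was among the genes that stayed above the pool. CCS1, the chaperone that gives SOD1 its copper, was at -0.62 and 0.17, below the pool at 120 min.

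**Figure D3:**
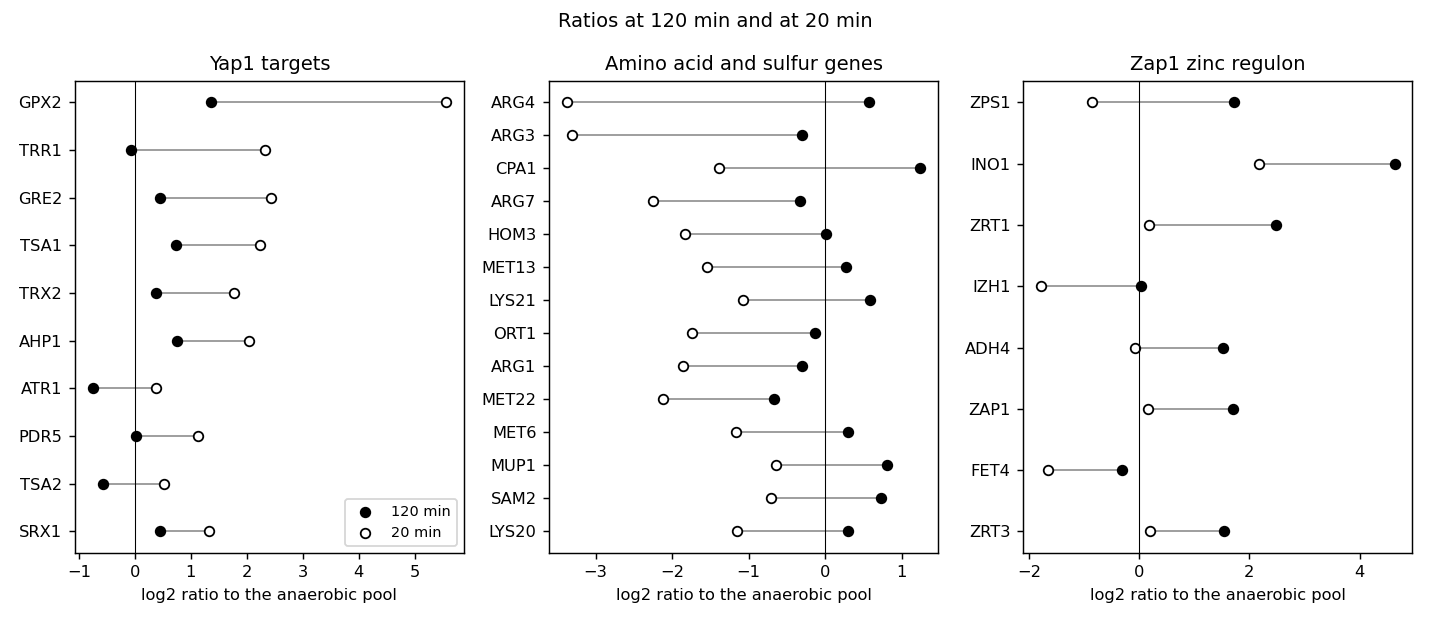
Log2 ratio to the anaerobic pool at 120 min (filled) and at 20 min (open) for named genes of the Yap1 targets, the amino acid and sulfur pathways and the Zap1 zinc regulon. The 10 Yap1 targets lie further left at 120 min, as in TRR1 (-0.06 and 2.33), and the genes in the other panels lie further right, as in ARG4 (0.58 and -3.38) and ZRT1 (2.48 and 0.17).

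Some genes of arginine, lysine and methionine synthesis were well below the pool at 20 min and close to it or above it at 120 min. The highest difference belonged to ARG4, argininosuccinate lyase of arginine synthesis, with -1.45, -2.81, -3.38, -1.31 and 0.58 at 5, 10, 20, 60 and 120 min, 15.5-fold higher at 120 min than at 20 min. ARG3, ornithine carbamoyltransferase, was at -0.30 at 120 min and -3.31 at 20 min. CPA1, a subunit of the carbamoyl phosphate synthase that serves arginine, was at 1.24 and -1.39. ARG4 and CPA1 were above the pool at 120 min, and ARG3 was close to it. ARG7, ornithine acetyltransferase, was at -0.33 at 120 min and -2.25 at 20 min. ARG1, argininosuccinate synthase, was at -0.30 and -1.85, and ORT1, the mitochondrial ornithine carrier, at -0.14 and -1.74. Of 14 arginine genes, these 6 were at least 2-fold higher and 0 lower (2.59% and 2.19% of all genes). The genes of arginine breakdown lay apart from them. CAR1, arginase, was above the pool at 0.97 at 120 min and 1.13 at 20 min, and CAR2, ornithine transaminase, had a difference of 0.07. ARG80, ARG81 and ARG82, regulators of arginine genes, differed by 0.01, -0.03 and 0.28.

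Other amino acid pathways, which the activator Gcn4 is known to control, had 11 of 44 genes at least 2-fold higher at 120 min, beside 2.59% of all genes, and 0 lower, with a median of 0.58. HOM3, aspartate kinase, was at 0.01 at 120 min and -1.83 at 20 min. LYS21 and LYS20, the homocitrate synthases of lysine synthesis, were at 0.59 and 0.29 at 120 min and at -1.07 and -1.15 at 20 min. LYS1, saccharopine dehydrogenase, was at -0.40 at 120 min and -1.76 at 20 min. The lysine branch thus held 4 of the 11, with LYS2, the aminoadipate reductase, at a difference of 1.15. HIS4 of histidine synthesis had a difference of 1.23, LEU4 of leucine synthesis 1.16, HOM2 of the threonine and methionine branch 1.16, ARO1 and ARO3 of aromatic amino acid synthesis both 1.14, and ILV3 of branched-chain synthesis 1.11. LEU1 (-0.37) and HIS6 (-0.34), which act in the same leucine and histidine pathways, had the lowest differences of the list.

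Of 30 genes of methionine and sulfur metabolism, 10 were at least 2-fold higher at 120 min, beside 2.59% of all genes, and 0 lower. Of the 30, 27 lay above 0 and the median was 0.61, or 0.24 with the mean of 60 and 120 min as the late side. MET13, methylenetetrahydrofolate reductase, was at 0.27 at 120 min and -1.54 at 20 min. MET6, methionine synthase, was at 0.29 and -1.17, and MET22, a phosphatase of sulfate assimilation, at -0.66 and -2.12. SAM1 and SAM2, the S-adenosylmethionine synthetases, were at 0.22 and 0.72 at 120 min, against -0.90 and -0.71 at 20 min. Uptake genes were in the same group. MUP1, the high-affinity methionine permease, was at 0.81 at 120 min and -0.65 at 20 min, and SAM3, the S-adenosylmethionine permease, at 0.45 and -0.78. MUP3, a methionine permease, stayed below the pool, at -1.25 and -2.31, and so did SUL2, a sulfate permease, at -1.52 and -1.87. Sulfate reduction was still below the pool. MET10 and MET5, subunits of sulfite reductase, were at -1.09 and -0.64 at 120 min and at -1.35 and -1.28 at 20 min. SSU1, a sulfite exporter outside this list and chosen after its values were seen, had a difference of 1.73, with -0.43 at 120 min and -2.16 at 20 min.

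Other genes among the 15 highest differences had been below the pool since 5 min. DST1, the transcription elongation factor TFIIS, was at -2.25, -4.40, -3.90, -2.29 and -0.02 at 5, 10, 20, 60 and 120 min. ATG41, an autophagy gene, was at -4.61, -2.86, -2.42, -0.36 and 0.96. MIS1, the mitochondrial C1-tetrahydrofolate synthase, was at -1.32, -2.19, -2.84, -1.35 and 0.26. Like ARG4, these 3 genes were low at 5, 10 and 20 min and at the pool or above it at 120 min. At 60 min ARG4, DST1 and MIS1 were still more than 2-fold below the pool, and ATG41 was not. ARG4 and MIS1 were lowest at 20 min, but DST1 was lowest at 10 min and ATG41 at 5 min. TMT1, a methyltransferase of trans-aconitate, was at -0.04 at 120 min and -3.07 at 20 min, and QDR3, a plasma membrane exporter, at 0.77 and -1.26. ADH5, an alcohol dehydrogenase isozyme, was at -0.82 at 120 min and -3.33 at 20 min, and RTC2, a vacuolar amino acid transporter, at -1.07 and -3.49. ADH5 and RTC2 were still below the pool after 120 min, at differences of 2.51 and 2.42.

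Genes of the zinc regulon were among those that were higher at 120 min without having been far below the pool at 10 min. Zap1, the zinc-responsive activator, is known to induce uptake genes and itself when zinc is short. Of 18 genes, 8 were at least 2-fold higher at 120 min, beside 2.59% of all genes, and 0 lower, with a median of 0.34. ZRT1, the high-affinity zinc transporter, was at -1.64, 0.06, 0.17, 2.39 and 2.48 at 5, 10, 20, 60 and 120 min, and ZAP1 at -1.24, 0.03, 0.16, 0.53 and 1.71. ZPS1, a zinc-regulated cell surface protein, was at 1.72 at 120 min and -0.85 at 20 min. ADH4, an alcohol dehydrogenase made when zinc is short, was at 1.52 and -0.07, and ZRT3, which exports zinc out of the vacuole, at 1.54 and 0.20. These 5 genes were at least 2-fold above the pool at 120 min and less than 2-fold above it, or below it, at 5, 10 and 20 min. IZH1, a membrane protein of zinc metabolism, and FET4, a low-affinity metal transporter, were instead low at 20 min, at -1.78 and -1.65, and at 0.03 and -0.30 at 120 min. The other members lay within 2-fold, among them ZRT2, the low-affinity zinc transporter (0.37), and ZRC1, the vacuolar zinc importer (0.18).

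INO1, the inositol-3-phosphate synthase and also a reported target of Zap1, had the highest ratio of the 120 min sample among the genes named here, with 0.73, 0.61, 2.18, 0.87 and 4.64 at 5, 10, 20, 60 and 120 min. Of 21 genes of inositol and phospholipid synthesis, 18 lay above 0, with a median of 0.31. At least 2-fold higher at 120 min were 2, INO1 and PSD1, beside 2.59% of all genes, and 0 were lower. PSD1, the mitochondrial phosphatidylserine decarboxylase, was at 0.94 at 120 min and -0.11 at 20 min. ITR1, the inositol transporter, was at 1.20 and 0.25, and OPI3, a phospholipid methyltransferase, at 0.76 and 0.06. OPI1, the repressor of these genes, was at 0.90 and 0.36, and INO2 and INO4, their activators, differed by -0.19 and 0.37. Among 18 genes of the phosphate regulon, 2 were at least 2-fold higher, beside 2.59% of all genes, and the median was 0.34. They were GIT1 (1.12), a glycerophosphoinositol permease, and PHM8 (1.16), a phosphatase.

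**Figure D4:**
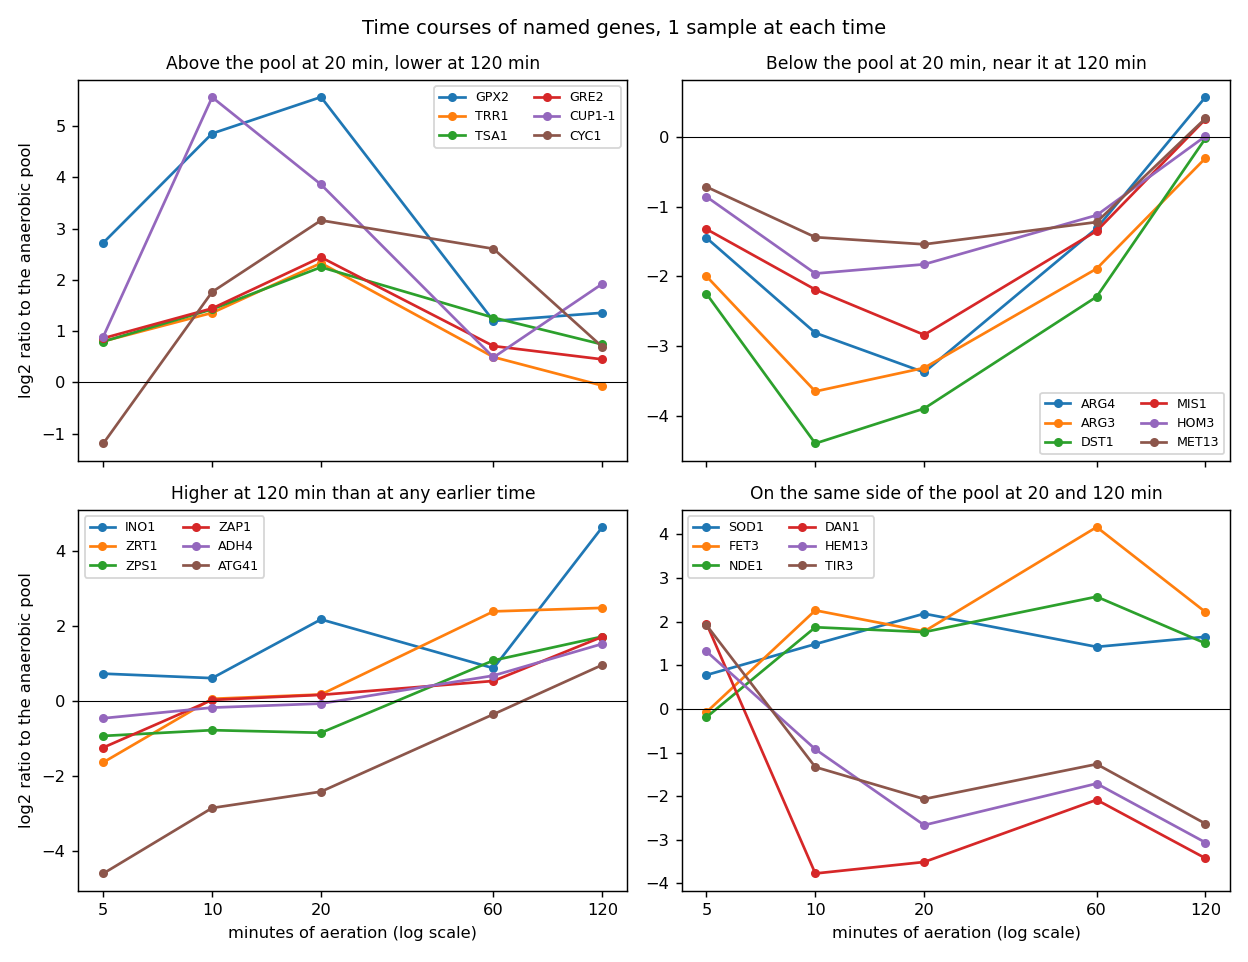
Log2 ratio to the anaerobic pool by minutes of aeration (log axis) for named genes in 4 sets, with 1 sample at each time and no error. GPX2 is at 5.57 at 20 min and 1.36 at 120 min, ARG4 at -3.38 and 0.58 at these times, ZRT1 at 0.17 and 2.48, and DAN1 at -3.51 and -3.42.

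Some hypoxic genes were among the lasting responses. The lasting genes were taken as those with the largest value of the smaller ratio at 20 and 120 min, so their levels at these times are a description. Below the pool were DAN1, TIR1, HEM13, TIR3, NRS1, INA1, RGI1 and SRY1. DAN1 was at -3.77, -3.51, -2.08 and -3.42 at 10, 20, 60 and 120 min. TIR1 was further below the pool at 120 min, at -5.97, than at 20 min, at -2.83, and had the third lowest difference, -3.14. TIR3, of the same mannoprotein family, was at -2.63 at 120 min and -2.07 at 20 min, and TIR2 and TIR4 differed by -0.10 and 0.01. Of 9 genes in a list of DAN, TIR and other cell wall mannoproteins, CWP1 and CWP2 among them, TIR1 was thus the only one past 2-fold. RGI1, needed for growth on respired carbon, was at -1.58 at 120 min and -2.14 at 20 min, and SRY1, a hydroxyaspartate dehydratase, at -1.55 and -1.75. Of 18 seripauperins, near-identical stress-related cell wall genes, none was past 2-fold, and PAU6 and PAU3 were at -1.29 and -1.11 at 120 min and at -0.72 and -0.63 at 20 min.

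Above the pool at both times were INO1, CUP1-2, CUP1-1, FET3, SOD1, EBP2, NCA3 and NDE1. FET3, the copper oxidase of high-affinity iron uptake, which uses oxygen, was at 2.22 at 120 min and 1.78 at 20 min. NDE1, the external mitochondrial NADH dehydrogenase, was at 1.502 and 1.76. NCA3, involved in making mitochondrial ATP synthase, was at 1.95 and 1.51, and EBP2, a ribosome biogenesis factor, at 1.70 and 1.63. FET3, NDE1, NCA3 and EBP2 thus had ratios at 120 min within 1.5-fold of those at 20 min. In the 60 min sample between them, these genes were at 4.17, 2.57, 1.87 and 0.61.

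Other hypoxic genes were near the pool at 120 min. Of 14 genes known to be repressed by Rox1, 2 were at least 2-fold higher at 120 min and 1, TIR1, was lower. Over all genes these shares were 2.59% and 2.19%. The median of the 14 was 0.13. ERG11, the sterol 14-demethylase, which uses oxygen and heme, was at 0.59, -0.12, -1.44, -0.52 and -0.18 at 5, 10, 20, 60 and 120 min. OLE1, the only fatty acid desaturase of this yeast, was at 0.33, 0.78, -1.26, -0.32 and -0.01. Both were lowest at 20 min and near the pool at 120 min. Of 13 regulators of oxygen, heme and sterol genes, 2 were past 2-fold, both higher, beside 2.59% of all genes. They were UPC2, the activator of sterol genes, at -0.34 at 120 min and -1.61 at 20 min, and HAP1, the heme-responsive activator, at -0.05 and -1.53. SUT1 and SUT2, regulators of sterol uptake, and MOT3, a repressor of hypoxic genes, had differences of -0.65, -0.55 and -0.43. ANB1, the hypoxic form of a translation factor, was lower at 120 min, at -0.61, than at 20 min, at 0.03, and AAC3, the hypoxic ADP/ATP carrier, lay above the pool at 0.51 and 0.32.

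The sterol pathway as a whole had no common sign. Of 25 ergosterol genes, ERG11 was past 2-fold on the higher side and CYB5, the cytochrome b5 that feeds electrons to its oxygen-using steps, on the lower side, with -0.93 at 120 min and 0.17 at 20 min. ERG1 and ERG25, which also use oxygen, had differences of 0.58 and 0.56, while ERG26 and ERG6 had -0.86 and -0.70. Of 14 genes of fatty acid synthesis, FAS1 and OLE1 were at least 2-fold higher, beside 2.59% of all genes, and the median was 0.34. FAS1 and FAS2, the subunits of fatty acid synthase, were at 0.70 and 0.49 at 120 min, against -0.58 and -0.47 at 20 min, and ACC1, acetyl-CoA carboxylase, had a difference of 0.75. Of 9 genes of heme synthesis and breakdown, none was past 2-fold. HEM1, the first enzyme, had a difference of 0.35 and HEM15, which inserts the iron, of -0.25.

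Most respiratory genes were slightly higher at 120 min than at 20 min. Of 30 genes of the respiratory chain, 27 lay above 0, beside 48.9% of all genes, with a median of 0.31. The list's median ratio was -0.0255, 0.40, -0.0061, 0.24 and 0.47 at 5, 10, 20, 60 and 120 min. It was thus lower at 20 min than at 10 min, and the 10 min value was near that at 120 min. At least 2-fold higher were 5, beside 2.59% of all genes, and 1, CYC1, was lower, beside 2.19%. The others below 0 were the external NADH dehydrogenases NDE1 (-0.26) and NDE2 (-0.28). CYC1 was at -1.19, 1.76, 3.16, 2.61 and 0.69 at 5, 10, 20, 60 and 120 min. CYB2, the lactate dehydrogenase that passes electrons to cytochrome c, was at 1.06 at 120 min and -0.57 at 20 min. SDH2, of succinate dehydrogenase, was at 0.55 and -0.87, and NDI1, the internal NADH dehydrogenase, at 0.14 and -0.98. These 3 were low at 20 min but above the pool at 10 min, at 0.36, 0.37 and 0.27. COX5A, the aerobic form of a cytochrome oxidase subunit, was at 0.94 at 120 min and -0.11 at 20 min, and QCR9, of the bc1 complex, at 0.82 and -0.21. Both were above the pool at 10 min, at 0.25 and 0.55. COX5B, the hypoxic partner of COX5A, was at -0.43 and -0.62. HAP4, the activating subunit of the Hap2/3/4/5 complex, was at 0.85 at 120 min and -0.05 at 20 min, a difference of 0.89.

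Of 16 ATP synthase genes, 13 lay above 0 and none was past 2-fold. Their median ratio was 0.45, 0.29 and 0.67 at 10, 20 and 120 min. The highest were ATP7 and ATP3, with 0.81 and 0.72, each at 1.02 at 120 min. Among 24 genes of the citric acid and glyoxylate cycles, 3 were at least 2-fold higher, beside 2.59% of all genes. They were SDH2, the peroxisomal citrate synthase CIT2 (1.09) and the malic enzyme MAE1 (1.07). CIT1, the mitochondrial citrate synthase, and MDH1, the mitochondrial malate dehydrogenase, had 0.65 and 0.85. Mitochondrial DNA's own transcripts had mixed signs over 17 features: OLI1, an ATP synthase subunit, was at 0.29 at 120 min and 1.65 at 20 min, while COX1, a cytochrome oxidase subunit, was at 1.72 and 0.72. Genes that import proteins into mitochondria had the opposite sign to respiratory genes. Of 28, 25 lay below 0 with a median of -0.28 and none past 2-fold, and TIM13 and TOM5 were lowest at -0.93 and -0.92.

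**Figure D5:**
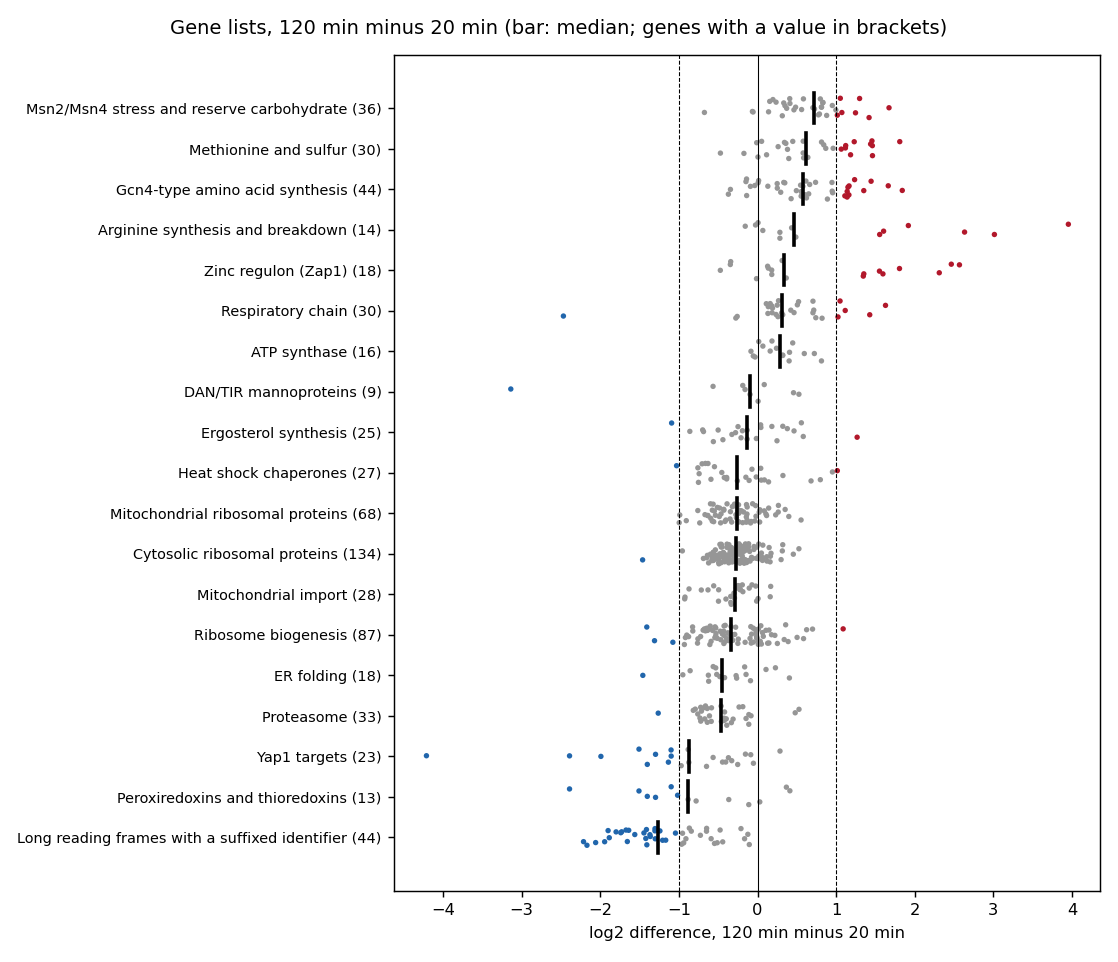
Difference in log2 ratio, 120 min minus 20 min, for each gene (points) of 19 gene lists, with black bars at the medians, dashed lines at 2-fold and the number of genes with a difference in brackets. Red and blue points are at least 2-fold higher and lower at 120 min. Medians run between 0.71 for stress and reserve carbohydrate genes and -1.27 for the long reading frames with a suffixed identifier.

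Most stress genes under Msn2 and Msn4, the general stress activators, were higher at 120 min than at 20 min. Of 36 genes, 33 lay above 0, 7 were at least 2-fold higher (2.59% of all genes) and 0 lower, with a median of 0.71. The list's median ratio was 0.20, 0.086, -0.54, -1.04 and 0.12 at 5, 10, 20, 60 and 120 min, so it was lowest at 60 min. The median difference was 0.080 with the mean of 60 and 120 min as the late side and 0.27 with the mean of 10 and 20 min as the early side. CTT1 was the highest, followed by GSY2, the main glycogen synthase, at -0.08 at 120 min and -1.50 at 20 min. YGP1, a secreted glycoprotein, was at 0.76 and -0.54, and ALD3, an aldehyde dehydrogenase, at 0.25 and -0.999. HSP26, a small heat shock protein, was at 1.27 and 0.26, but at -0.98 at 60 min, and its difference was -0.11 with that late side. All of these but HSP26 were thus below the pool at 20 min, and HSP26 was above it at 120 and at 20 min. GLG1, the glycogen primer (1.61), GAC1 (1.09) and PIG2 (1.37), regulators of glycogen synthase, were also higher and were chosen after their values were seen. In the pentose phosphate pathway, 3 of 11 genes were at least 2-fold higher, beside 2.59% of all genes, and 0 lower. All 3, NQM1 (1.57), GND2 (1.32) and SOL4 (1.05), are the less used copies of a pair, while their partners TAL1, GND1 and SOL3 had 0.35, 0.09 and 0.20.

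Heat shock chaperones had 1 of 27 genes past 2-fold in each direction, HSP26 higher and CPR6, a cochaperone of Hsp90, lower (-1.03). The disaggregase HSP104 (0.80) and the mitochondrial HSP78 (0.95) had the sign of HSP26, while STI1 (-0.70), YDJ1 (-0.59) and HSP60 (-0.74) had that of CPR6. Folding genes of the endoplasmic reticulum had 15 of 18 genes below 0 and a median of -0.45. ERO1, the oxidase that drives disulfide formation and hands electrons to oxygen, was at -0.47 at 120 min and 0.99 at 20 min, and was the only 1 past 2-fold. KAR2, the Hsp70 of that compartment, was at 0.35 and 1.29. Of 33 proteasome genes, 31 lay below 0, with a median of -0.46 and 1, PRE1, past 2-fold (-1.26). RPN4, the activator of proteasome genes, had a difference of -0.11.

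In lists of growth genes most members lay below 0 by small amounts, and few were past 2-fold (2.59% higher and 2.19% lower over all genes). Of 134 genes of cytosolic ribosomal proteins, 115 lay below 0, with a median of -0.28, and 1, RPL22B, was past 2-fold (-1.46). Of 87 ribosome biogenesis genes, 64 lay below 0, with a median of -0.34, 3 at least 2-fold lower and 1 higher. NOG1 and NOG2, GTPases of the large subunit's assembly, were at 0.90 and 1.07 at 120 min and at 2.31 and 2.38 at 20 min, so they remained above the pool. BRX1, another assembly factor, was at 0.61 at 120 min and 1.68 at 20 min, and CBF5, the pseudouridine synthase, was the higher one, at 0.71 and -0.38. RNA polymerases I and III had a median of -0.24 over 31 genes with none past 2-fold, and translation factors -0.21 over 38 genes (-0.035 with the mean of 10 and 20 min as the early side) with 3 lower, the initiation factor subunits RPG1 (-1.36), TIF5 (-1.24) and GCD1 (-1.09). Mitochondrial ribosomal proteins had 55 of 68 genes below 0 and a median of -0.26. Genes of 1 list share a sample, so these counts are not independent observations. Histone genes had a median of 0.41 over 10 genes, with HHT1 at 0.87.

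Copper and iron genes did not share a sign. Of 13 copper genes, CUP1-1 and CUP1-2 were at least 2-fold lower at 120 min, and CTR1, the high-affinity copper transporter, was higher, at -1.41 at 120 min and -2.42 at 20 min. Of 31 genes of the iron regulon, 3 were lower and 1 higher by 2-fold (2.19% and 2.59% of all genes). FIT3, a cell wall mannoprotein that holds iron siderophores, was at -2.62 at 120 min and -1.19 at 20 min, and FIT1 was at -0.67 and 0.35. ISU2, a scaffold for iron-sulfur clusters, was at -0.13 and 1.29. TIS11, which degrades mRNAs of iron-using proteins, was at 1.40 and 0.27. SIT1, a siderophore transporter, was above the pool at both times, at 1.75 and 1.18, as was FTR1, the permease that works with FET3, at 0.94 and 1.43. Of 19 genes of iron-sulfur cluster assembly, ISU2 was the only 1 past 2-fold, and YFH1, frataxin, had -0.87.

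Most glycolytic genes were at the same level in the samples. Over 29 genes of glycolysis, fermentation and glycerol the median was 0.16, and CDC19, PGK1, TDH3, FBA1 and PDC1 had differences between -0.15 and 0.13. Past 2-fold lower were HXK2, the main hexokinase, at -1.10 at 120 min and 0.08 at 20 min, and ADH1, the main fermentative alcohol dehydrogenase, at -1.51 and -0.37. Past 2-fold higher were the isozymes ADH4 and ADH5 given above. ALD6, the cytosolic acetaldehyde dehydrogenase, was at 0.39 at 120 min and 1.44 at 20 min, and ALD5, a mitochondrial one, at 0.61 and -0.73. Of 25 genes of hexose transport and glucose signalling, 1 was past 2-fold, HXT5, a transporter of slowly growing cells, at 1.10 and -0.55.

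The lower side was also made up of long reading frames whose identifiers carry a suffix. In this genome such identifiers were mostly given to the Gag and Gag-Pol frames of Ty retrotransposons, which exist in many near-identical copies that an array can mix up, and the reference used here does not annotate single ones. The set was chosen after the values were seen, so its counts in part restate that choice and are only a description. Of 44 with a difference, 26 were at least 2-fold lower at 120 min, beside 2.19% of all genes, and all 44 lay below 0. Their median was -1.27, or -1.91 with the mean of 60 and 120 min as the late side. They made up 26 of the 118 lower genes with a symbol or identifier and 6 of the 15 lowest differences. YMR046C and YMR045C, whose identifiers carry no suffix and which the set leaves out, were also among the 15 lowest, at differences of -1.90 and -1.86. YDR365W-A was at -1.59 at 120 min and 0.62 at 20 min, and YBL005W-A at -1.75 and 0.42. The median of the set was -0.36, -0.45, 0.19, -2.41 and -1.01 at 5, 10, 20, 60 and 120 min. The 20 min sample was the only 1 of the 5 in which most, 33 of 44, were above the pool. The lowest difference of all was that of YLR162W, a reading frame with no name, at -1.51, -1.88, 1.49, -0.22 and -2.79 at 5, 10, 20, 60 and 120 min. In it too, the 20 min sample stood above the others.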

How the data were processed

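Gene expression was measured with 2-colour arrays, each aerated sample being a dye-swap pair against the pool. The deposited values are normalized log ratios taken as natural log values because the lowest, -4.6051702, is the natural log of 0.01, a reading that rests on the values alone. They were divided by 0.6931 to give log2 ratios. If the authors deposited log2 values, the log2 ratios given here are too large, and each would have to be multiplied by 0.6931. How the authors normalized, and with which filters, is not given in the sources used here. Of 6495 features, 5754 had a symbol in the platform table, all matched to the reference, and 741 had none. The 25 genes with 2 features were averaged. Spot intensities were not used, so the number of arrays limits the precision.

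With 1 sample a side no test was possible. The gene lists (50 from textbook knowledge and 1 of reading frames) and the comparison were chosen with earlier results of these data known. Named genes were the 15 highest and 15 lowest differences among genes with values at all 5 times, 8 lasting genes a side, the 8 furthest from the pool at 10 min a side, and up to 6 members a list plus those with its defining role. Promoter motifs, which had been planned, were not run since no sequences were used here. Python 3.11.15, pandas 2.3.3 and numpy 2.4.6 were used, and scripts were tested on simulated data.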

Additional observations from a re-analysis of the deposited data

How the results depend on the processing

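With 1 sample a side, no setting without a replicate exists. No paired analysis was possible because each side is 1 sample and the labels give no replicate numbers. The counts of genes at least 2-fold higher and lower at 120 min (162 and 137) were 55 and 38 with values read as log2, 39 and 30 at a 3-fold threshold, and 101 and 82 over the fewer genes (3377) whose self-hybridisation lay within 2-fold. With the mean of 10 and 20 min as the early side they were 109 and 89. With the mean of 60 and 120 min as the late side they were 141 and 244, so that 36.6% of the genes past 2-fold were higher, against 54.2%. Centring on the median gave 166 and 132, and leaving out the long suffixed reading frames, an alternative chosen after seeing the data, 162 and 111. The median of the genes above the pool at 10 min was -0.66 with the early side of 10 and 20 min, and that of the genes below it was 0.88, but there the 10 min sample both chose the genes and entered the difference. With the self-hybridisation filter the genes below it had 0.84. Under the other alternatives these medians were between -0.34 and -0.48 and between 0.54 and 0.65. The iron regulon's median (0.19) was -0.25 with the self-hybridisation filter and -0.029 with the early side of 10 and 20 min. With the late side of 60 and 120 min, PHM8 was at -0.96, HSP26 at -0.11 and ATG17 at -0.070, opposite in sign to the differences reported. The cause was not tested. The other values of the 14 lists with at least 3 members past 2-fold one way, and of the 110 named genes past 2-fold, kept their sign, but not all their size. Of 112 list values, 8 left the 95% binomial interval of the list's median without a change of sign. That interval takes the genes of a list as independent, which they are not. It served only as a rule for a change of size and is no error of the comparison. With that late side the median of stress genes was 0.080, of methionine genes 0.24 and of the long reading frames -1.91. With the early side of 10 and 20 min it was 0.27 for stress genes, -0.035 for translation factors and -0.93 for the long frames. Read as log2 it was 0.40 for the Gcn4 list and -0.88 for the long frames. By more than 0.32, the SD between features of a gene, 65 of the 110 genes differed with the late side beside the 3 of opposite sign, 45 with the early side and 100 when read as log2, which makes every difference smaller.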

Other observations

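Of 24 genes of purine synthesis and uptake, 16 were below the pool at both 120 and 20 min. ADE1, ADE17 and ADE2 were at -0.998, -0.999 and -1.0015 at 120 min and at -0.85, -0.86 and -1.07 at 20 min, and none of the 24 was past 2-fold (median -0.079). IMD2, an IMP dehydrogenase, was at -1.75 at 120 min and -0.80 at 20 min. MTD1, a cytosolic folate enzyme, was at -1.10 and -1.52, while its mitochondrial relative MIS1 was at 0.26 and -2.84. BIO2, biotin synthase, an iron-sulfur enzyme, was at -0.35 at 120 min and 0.76 at 20 min, whereas SNZ1, of vitamin B6 synthesis, was at -0.22 and -1.30.

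Several gene groups had medians near that of all genes and few members past 2-fold: nitrogen catabolite genes (-0.027 over 28), pheromone and mating genes (0.084 over 24), cyclins and cell cycle genes (0.14 over 19) and coenzyme Q synthesis (0.076 over 10). In autophagy, ATG41 and ATG17 (1.35) were past 2-fold among 24 genes, while ATG1, the kinase that starts the process, and ATG8, its membrane-bound marker, had -0.15 and 0.19. ARO9 and ARO10, of aromatic amino acid breakdown, were both lower at 120 min, at -1.34 and -1.56, against -0.21 and -0.39 at 20 min, and were chosen after their values were seen.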
